A study of Sus scrofa with 61 samples.

Results

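Oxidative phosphorylation transcripts were followed in the liver of offspring from German Landrace gilts that received a low protein diet during gestation. The genes were taken by symbol from the array annotation: those that start with NDUF (complex I), the SDH genes SDHA to SDHD (complex II), those that start with UQCR (complex III), the cytochrome c oxidase families COX4 to COX8 (complex IV) and those that start with ATP5 (complex V). They comprised 63 of the 6765 genes that carry a single symbol on the Affymetrix GeneChip Porcine Genome Array. Complex I held 33 genes, complex II 4, complex III 2, complex IV 7 and complex V 13, and another 4 are not subunits: the assembly factors NDUFAF1, NDUFAF2 and NDUFAF3, and the coupling factor ATP5S. Where a gene had several probe-sets, the one with the highest mean represented it. No mitochondrially encoded subunit was named by a single symbol (0 found), and with 2 genes complex III is thinly covered. All statements therefore concern nuclear genes. Total RNA of 61 animals was hybridised, 1 animal per array: 16 fetuses at 94 days post conception (dpc), 14 newborns at 1 day post natum (dpn), 15 weaners at 28 dpn and 16 young adults at 188 dpn. All carried the same genetic background and the same maternal diet, and animals of the adequate protein group were not analysed here. After birth the piglets were raised by foster sows on an adequate diet and later ate standard feed.

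In oxidative phosphorylation, complexes I and II take electrons from NADH and succinate and pass them by ubiquinone to complex III, from there by cytochrome c to complex IV, and so to oxygen. Complexes I, III and IV pump protons across the inner mitochondrial membrane, and complex V, the ATP synthase, uses their return to make ATP. Complex II is also an enzyme of the citrate cycle and is encoded entirely in the nucleus, whereas the other complexes combine nuclear and mitochondrial gene products. In the liver, oxidative phosphorylation supplies the ATP for gluconeogenesis and urea synthesis, which the newborn takes over from the placental supply. Several subunits exist as isoforms from different genes, among them a muscle and a liver form of the complex IV subunit COX7A.

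Stages were compared as period I (1 dpn minus 94 dpc), period II (28 dpn minus 1 dpn), period III (188 dpn minus 28 dpn) and the whole span (188 dpn minus 94 dpc). Changes are differences of mean log2 intensity, and a gene was called higher or lower when P and the q-value of limma were both at or below 0.05. Adjacent periods share the animals of the middle stage. Fetuses came from a separate experiment with Caesarean section, a difference that cannot be told apart from stage in period I and over the whole span. Pigs at 28 dpn and 188 dpn had been fasted overnight, and newborns are not described as fasted, so feeding and stage cannot be told apart in period II, nor over the whole span. Sib pairs were chosen to differ in weight at 94 dpc and 1 dpn only. Fetuses and newborns were killed by injection, the older pigs by electronarcosis and bleeding. These differences also cannot be told apart from stage in period II and over the whole span. Littermates were sampled but the labels do not identify them, and the p-values treat all animals as independent. In whole liver, fewer cells of a type and less RNA per cell cannot be told apart. All 12 hepatocyte markers found on the array had stage medians above the array median at every stage. In period I 5 of 11 tested were called higher and 1 lower, against 26.1% and 41.6% of all tested probe-sets. The median change of the list in that period was 0.11. In period II 8 of 10 tested were called lower, against 41.4% of all tested probe-sets, and the median change of the list was -0.39. In period III 1 of 7 tested was called higher and 1 lower, against 18.3% and 35.7%, with a median change of -0.05. Over the whole span 7 of 11 were called lower, against 55.0%, and the median change of the list was -0.26. The deposited intensities had been scaled to a common mean, whereas the median signal of an array fell with age (median of the arrays 166 (94 dpc), 149 (1 dpn), 117 (28 dpn) and 101 (188 dpn)). The median change of all probe-sets was therefore -0.09 in period I, -0.25 in period II, -0.10 in period III and -0.44 over the whole span. Each direction was also checked after quantile normalization and after subtraction of the array medians.

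From fetus to newborn the subunit transcripts rose broadly. Period I spans the last part of gestation as well as birth, with no stage sampled between, so the rise cannot be placed at birth. In period I, 58 of the 63 genes were tested, of which 49 were called higher, 3 lower and 6 neither. Over all 12257 probe-sets tested, 26.1% were called higher and 41.6% lower. The median change of the 63 genes was 0.69, which is 0.77 above the median of all probe-sets, and it stood at 0.66 after quantile normalization and 0.83 after subtraction of the array medians. Under these scalings 46 and 53 genes were called higher, and 43 were called higher under all 3. Of all probe-sets tested, 3820 of 12356 and 4149 of 12418 were called higher under these 2 scalings. The rise was seen in each complex, with 27 of 32 tested genes of complex I called higher, 4 of 4 of complex II, 2 of 2 of complex III, 4 of 6 of complex IV and 10 of 10 of complex V. For 13 genes every newborn lay above every fetus, against 3.38% of all tested probe-sets: UQCRB, COX5B, COX7A2, ATP5F1, NDUFA4, NDUFA8, NDUFA10, NDUFAB1, NDUFB2, NDUFB3, NDUFB7, NDUFB11 and NDUFS3. Without a single newborn, animal 21, this number was 29. Without the fetus 14 it was 20, and without the 9 arrays with outlying control probe-sets it was 31. Leaving out animals can only raise such a number, and the share over all probe-sets was not computed for these reduced sets. No gene lay wholly lower in newborns, against 4.32% of all tested probe-sets.

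**Figure D1:**
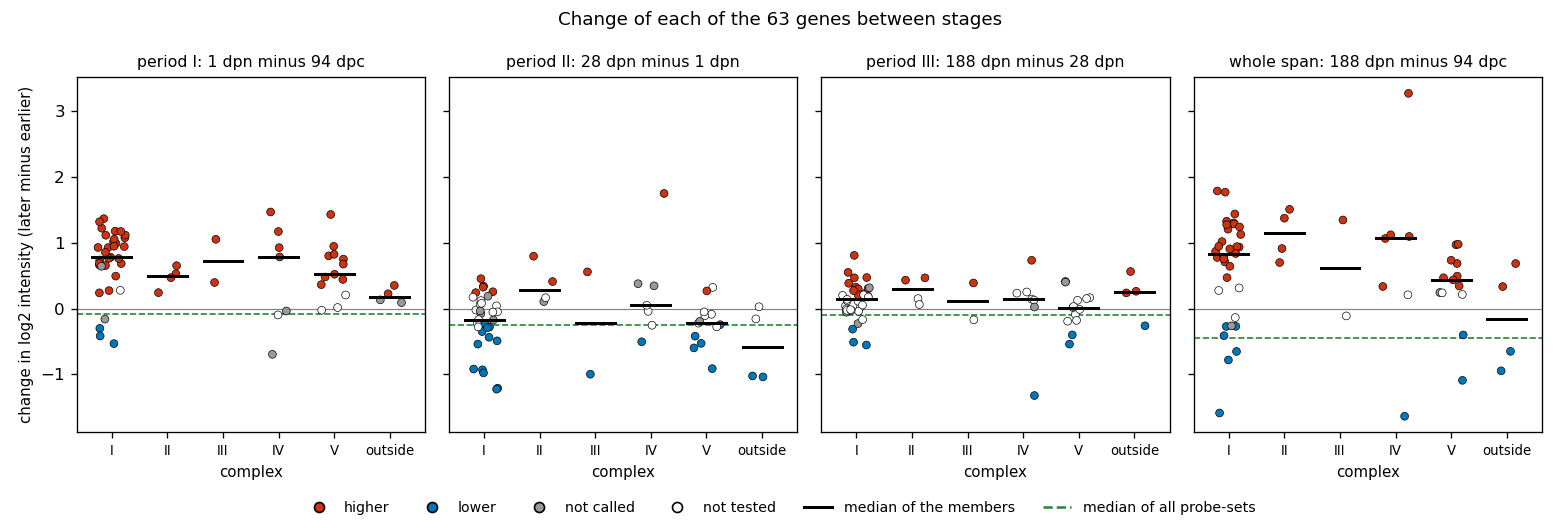
Change in log2 intensity (later minus earlier stage) of each of the 63 genes by complex in period I, period II, period III and over the whole span; a point is 1 gene, its colour gives the call, the black line is the median of the complex and the dashed line the median of all probe-sets. In period I most points lie above 0, while in period II the medians of complexes I, III and V lie below 0, and COX7A1 is the highest point of the whole span at 3.28.

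From fetus to young adult, 43 of 56 tested genes were called higher and 11 lower, against 28.6% and 55.0% of all 12948 tested probe-sets. The median change of the 63 genes was 0.71, or 1.15 above that of all probe-sets. After quantile normalization it was 0.41 (33 higher, 11 lower) and after subtraction of the array medians 1.36 (55 higher, 4 lower). Over all probe-sets, quantile normalization gave 5249 higher and 5362 lower of 12823 tested. Subtraction of the array medians gave 6723 and 4236 of 13234 for all probe-sets. The median of the 63 genes lay 0.38 above that of all probe-sets after quantile normalization and 1.15 above it after subtraction. In 28 genes all young adults lay above all fetuses, against 8.73% of tested probe-sets, and in 2, NDUFS1 and ATP5J, all lay below, against 17.6%. Without the 9 arrays with outlying control probe-sets these numbers were 30 and 4, for which the share over all probe-sets was not computed. Under all 3 scalings 33 genes were called higher and 4 lower. These 4 were ATP5J, COX8H, NDUFA5 and the assembly factor NDUFAF1.

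The mean levels of the complexes were followed by animal in the deposited scaling. The mean log2 intensity of the complex II genes, relative to their own mean over all arrays, was -0.61 ± 0.13 (94 dpc), -0.14 ± 0.21 (1 dpn), 0.23 ± 0.13 (28 dpn) and 0.51 ± 0.10 (188 dpn) (SD over animals), a step up at every stage. The complex I genes stood at -0.45 ± 0.12, 0.26 ± 0.19, 0.05 ± 0.11 and 0.17 ± 0.16 at the same 4 stages, so that they were highest in newborns in this scaling. Complex V was also highest in newborns, with -0.30 ± 0.13, 0.27 ± 0.20, 0.04 ± 0.15 and 0.03 ± 0.11, but did not rise again after 28 dpn. After subtraction of the array medians neither was highest in newborns, since the median change of the genes was 0.18 in period II and 0.30 in period III for complex I, and 0.13 and 0.18 for complex V. Complex IV was at -0.51 ± 0.20, -0.00 ± 0.31, 0.25 ± 0.19 and 0.28 ± 0.21, with its widest spread in newborns. Complex III averaged 2 genes of opposite course and stood at -0.45 ± 0.22, 0.27 ± 0.26, 0.05 ± 0.18 and 0.17 ± 0.16. Fetuses and young adults did not overlap for complex II, where the highest fetus was at -0.44 and the lowest young adult at 0.41. Differences between complexes were not tested.

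**Figure D2:**
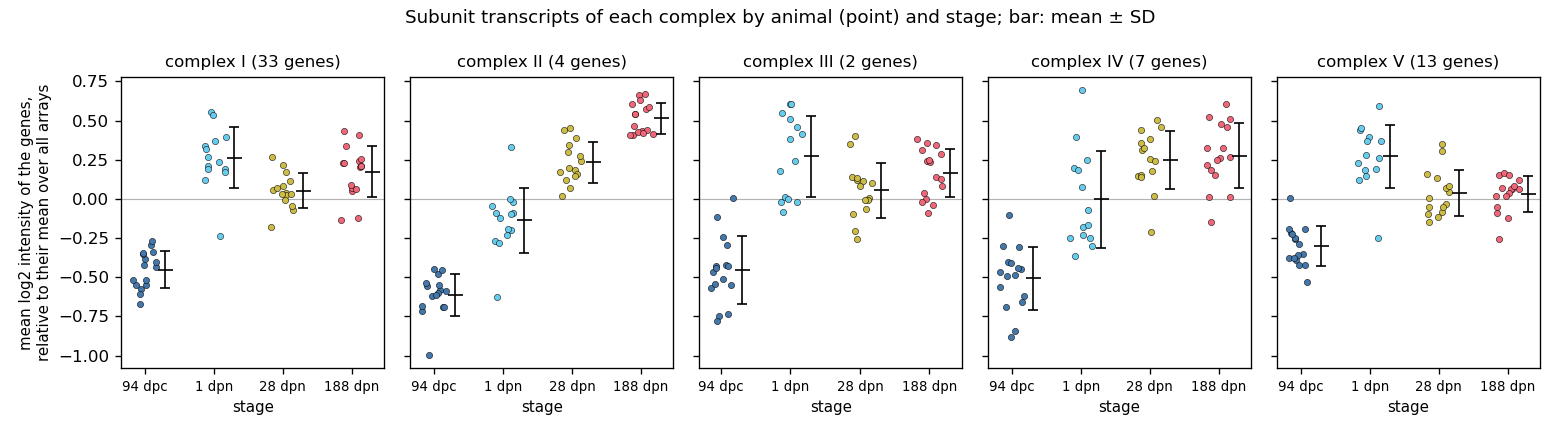
Mean log2 intensity of the genes of complexes I to V, relative to their mean over all arrays, on the vertical axis by stage; each point is 1 animal and the bars give mean ± SD (16 animals at 94 dpc, 14 at 1 dpn, 15 at 28 dpn, 16 at 188 dpn). Complex II steps up at each stage to 0.51 at 188 dpn, whereas complexes I and V are highest at 1 dpn in this, the deposited, scaling (not after subtraction of the array medians), and 1 newborn lies low in complexes I, II and V.

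Complex II oxidises succinate at SDHA, the flavoprotein, passes the electrons over the iron-sulphur protein SDHB and is held in the membrane by SDHC and SDHD. The lowest, median and highest intensity of SDHA were 4282, 4731 and 5797 at 94 dpc, 5263, 7055 and 9255 at 1 dpn, 7744, 9046 and 11826 at 28 dpn, and 9739, 12472 and 15065 at 188 dpn. Each stage lay above the one before, with overlap between neighbours and none between the ends of the series. SDHA was called higher by 0.53 ± 0.07 (SE; q = 6.5e-08) in period I, 0.41 ± 0.08 (SE; q = 1.3e-05) in period II and 0.43 ± 0.08 (SE; q = 8.4e-06) in period III, and by 1.38 ± 0.07 (SE; q = 5.9e-20) over the whole span. After quantile normalization SDHA failed the SD filter in periods II and III, with changes of 0.20 and 0.32, and was called higher in period I and over the whole span. The anchor SDHC had intensities of 1952, 3317 and 3886 at 94 dpc, 2544, 3425 and 5128 at 1 dpn, 5097, 6011 and 7626 at 28 dpn, and 7155, 8530.4 and 10580.0 at 188 dpn. Fetuses and newborns overlapped widely, and the larger steps came later. SDHC was higher by 0.24 ± 0.11 (SE; q = 0.012) in period I, 0.80 ± 0.10 (SE; q = 3.4e-09) in period II and 0.47 ± 0.08 (SE; q = 3.2e-06) in period III. The period I call was lost after quantile normalization (0.15), with Benjamini-Hochberg adjustment and without the arrays with outlying control probe-sets (0.20). The period II call held under all 3 scalings, and the period III change failed the SD filter after quantile normalization (0.32). Over the whole span SDHC was higher by 1.51 ± 0.10 (SE; q = 9.1e-17), again in all young adults against all fetuses.

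The calls of SDHB and SDHD after birth depended on the scaling. The median intensity of SDHB was 8464 (94 dpc), 13181 (1 dpn), 14226 (28 dpn) and 16175 (188 dpn), and its change in period I was 0.65 ± 0.11 (SE; q = 9.6e-07). In period II its change of 0.11 ± 0.10 (SE; q = 0.063) was not called, and in period III the gene was not tested, whereas after subtraction of the array medians it was called higher by 0.46 in period II and 0.31 in period III. SDHD had medians of 6883 (94 dpc), 9318 (1 dpn), 10296 (28 dpn) and 10660.3 (188 dpn). It was called higher by 0.47 ± 0.09 (SE; q = 5.9e-06) in period I and was tested in neither later period, but after subtraction of the array medians it was called higher by 0.62 in period I and 0.51 in period II. Over the whole span both were called higher, SDHB by 0.91 ± 0.08 (SE; q = 1.9e-13) and SDHD by 0.70 ± 0.07 (SE; q = 2.5e-12), with all young adults above all fetuses, although SDHD failed the SD filter after quantile normalization with a change of 0.20. Within the same array, SDHC minus SDHD shifted upwards after birth, with means of -1.14 (94 dpc), -1.37 (1 dpn), -0.74 (28 dpn) and -0.33 (188 dpn). These differences show unequal change of the pair and say nothing about which transcript is more abundant, since probe-sets bind with different strength.

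For both enzyme subunits of complex II another probe-set of the gene ran the other way. The dimmer probe-set of SDHA was called lower in period II by -1.39 ± 0.10 (SE; q = 8.4e-14), against 0.41 for the brighter one that represents the gene, although both were called higher in period I (0.54 and 0.53). The dimmer probe-set of SDHB was called lower by -2.38 ± 0.22 (SE; q = 6.1e-13) over the whole span, against 0.91. Averaged over the probe-sets of a gene, the change of SDHA was -0.49 and that of SDHB -0.33 in period II, and that of SDHB -0.73 over the whole span. In period I the averaged change of SDHB was 0.16 and no longer called. The postnatal rise of complex II therefore rests on the brightest probe-set for these 2 genes, and on the only probe-set for SDHC and SDHD.

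Which part of a transcript a probe-set reads was not analysed, so the cause of the disagreement was not tested. Of the 63 genes, 14 had more than 1 probe-set, and in 6 of them probe-sets were called in opposite directions in at least 1 comparison: SDHA, SDHB, ATP5L, NDUFA1, NDUFAF1 and NDUFV2. For ATP5L, subunit g of the ATP synthase, the probe-sets were called at 0.27 ± 0.09 and -1.08 ± 0.14 in period II (SE; q = 0.0015 and 1.8e-08). For NDUFA1, an accessory subunit of complex I, they were called at -0.53 ± 0.23 and 0.37 ± 0.09 in period I (SE; q = 0.009 and 1.8e-04). No direction can be given for that gene in that period.

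In complex IV the paralogues of subunit COX7A parted after birth. COX7A1, the form best known from heart and skeletal muscle, had a lowest, median and highest intensity of 665, 1438 and 3642 at 94 dpc, 1039.5, 2500.3 and 6991 at 1 dpn, 3612, 8521 and 11538 at 28 dpn, and 7773, 13492 and 18323 at 188 dpn. Its spread was wide in fetuses and newborns, which overlapped, and all young adults lay above all fetuses. COX7A1 was called higher in each period, by 0.79 ± 0.23 (SE; q = 8.3e-04) in period I, 1.75 ± 0.21 (SE; q = 4.3e-09) in period II and 0.74 ± 0.14 (SE; q = 1.7e-05) in period III. Over the whole span it rose by 3.28 ± 0.17 (SE; q = 3.7e-19), the largest change of the 63 genes, and all 4 calls held under all 3 scalings. COX7A2, the form of liver and most other tissues, had 3729, 5599 and 8314 at 94 dpc, 12034, 15014 and 23514 at 1 dpn, 8541, 11065 and 12972 at 28 dpn, and 9401, 11884 and 16641 at 188 dpn. Newborns lay wholly above fetuses and weaners were lower again, with some overlap. COX7A2 was higher by 1.47 ± 0.10 (SE; q = 2.0e-14) in period I and lower by -0.50 ± 0.09 (SE; q = 1.3e-06) in period II, a fall that was not called after subtraction of the array medians (-0.16). In period III it was not tested (change of 0.13), and over the whole span it was 2.14-fold higher (q = 3.0e-14).

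Set against each other on the same array, which removes any common scaling factor, COX7A1 minus COX7A2 averaged -2.00 ± 0.64 (94 dpc), -2.68 ± 0.54 (1 dpn), -0.43 ± 0.37 (28 dpn) and 0.18 ± 0.26 (188 dpn) (SD). All weaners (-1.24 to 0.04) lay above all newborns (-3.53 to -1.75). Skeletal and heart muscle markers were low at each stage: 6 of the 8 listed genes were found on the array, and 5 of them had stage medians at or below the array median at 94 dpc and all 6 at the later stages. The mean signal of these 6 markers (log2, median of the animals) was 6.68 (94 dpc), 6.19 (1 dpn), 5.45 (28 dpn) and 5.42 (188 dpn). Of these 6 markers 1 was tested in period I, where the median change of the list was 0.09, and 0 were tested in periods II and III. Their part in the change of COX7A1 was not tested.

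The remaining complex IV genes differed in course. COX5B, a regulatory subunit on the matrix side, had 7131, 9295 and 13034 at 94 dpc, 15176, 20407 and 29243 at 1 dpn, 15102, 17231 and 23214 at 28 dpn, and 14916, 19074 and 24753 at 188 dpn, with no overlap between newborns and fetuses. It was higher by 1.17 ± 0.08 (SE; q = 4.8e-14) in period I, was tested in neither later period and stayed higher over the whole span by 1.07 ± 0.08 (SE; q = 4.3e-15). COX6A1, the liver form of a subunit that has its own muscle isoform, had medians of 9232 (94 dpc), 17657 (1 dpn), 17049 (28 dpn) and 19749.8 (188 dpn) and was higher by 0.93 ± 0.09 (SE; q = 2.0e-11) in period I and by 1.12 ± 0.08 (SE; q = 6.6e-15) over the whole span. COX6C and COX7C, small structural subunits, had no call in any of the 3 periods in the deposited scaling (COX6C failed the SD filter in each), with medians of 18535 (94 dpc), 17346 (1 dpn), 18407 (28 dpn) and 21402 (188 dpn) for COX6C and of 11293 (94 dpc), 10254 (1 dpn), 16907 (28 dpn) and 13087 (188 dpn) for COX7C. After subtraction of the array medians both were called higher in period II, COX6C by 0.40 and COX7C by 0.70. COX8H, the heart type of subunit 8 and among the dimmest of the 63 genes, was above the array median in 25 of 61 animals. Its median intensity was 159 (94 dpc), 105 (1 dpn), 131 (28 dpn) and 40 (188 dpn), and it was called lower by -1.32 ± 0.33 (SE; q = 4.3e-04) in period III and by -1.64 ± 0.36 (SE; q = 9.9e-06) over the whole span under all 3 scalings. At such intensities the size of a fall is uncertain.

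The 2 genes of complex III went apart. UQCRB, the ubiquinone-binding protein, had 3494, 4241 and 4849.6 at 94 dpc, 5965, 9623 and 12782 at 1 dpn, 3649, 4529 and 6024 at 28 dpn, and 3082, 3773 and 5616 at 188 dpn, highest in newborns. Newborns lay wholly above fetuses. UQCRB was higher by 1.06 ± 0.11 (SE; q = 1.3e-10) in period I and lower by -1.00 ± 0.12 (SE; q = 2.1e-09) in period II, under all 3 scalings, and the changes of -0.17 in period III and -0.11 over the whole span failed the SD filter. UQCRB was called lower over the whole span by -0.44 after quantile normalization and higher by 0.54 after subtraction of the array medians. UQCR10, a small subunit, had 2949, 4199 and 7249.6 at 94 dpc, 4698, 5806 and 7008 at 1 dpn, 6209, 8582 and 12187 at 28 dpn, and 7549, 10527 and 17279.7 at 188 dpn and was higher at each step. Its changes of 0.40 ± 0.11 (SE; q = 4.1e-04) in period I, 0.56 ± 0.09 (SE; q = 8.2e-07) in period II and 0.39 ± 0.12 (SE; q = 0.0017) in period III were called under all 3 scalings, as was that of 1.35 ± 0.13 (SE; q = 1.1e-12) over the whole span. Within arrays, UQCR10 minus UQCRB averaged 0.03 (94 dpc), -0.62 (1 dpn), 0.93 (28 dpn) and 1.49 (188 dpn), and weaners (from 0.34) did not overlap with newborns (up to -0.08).

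**Figure D3:**
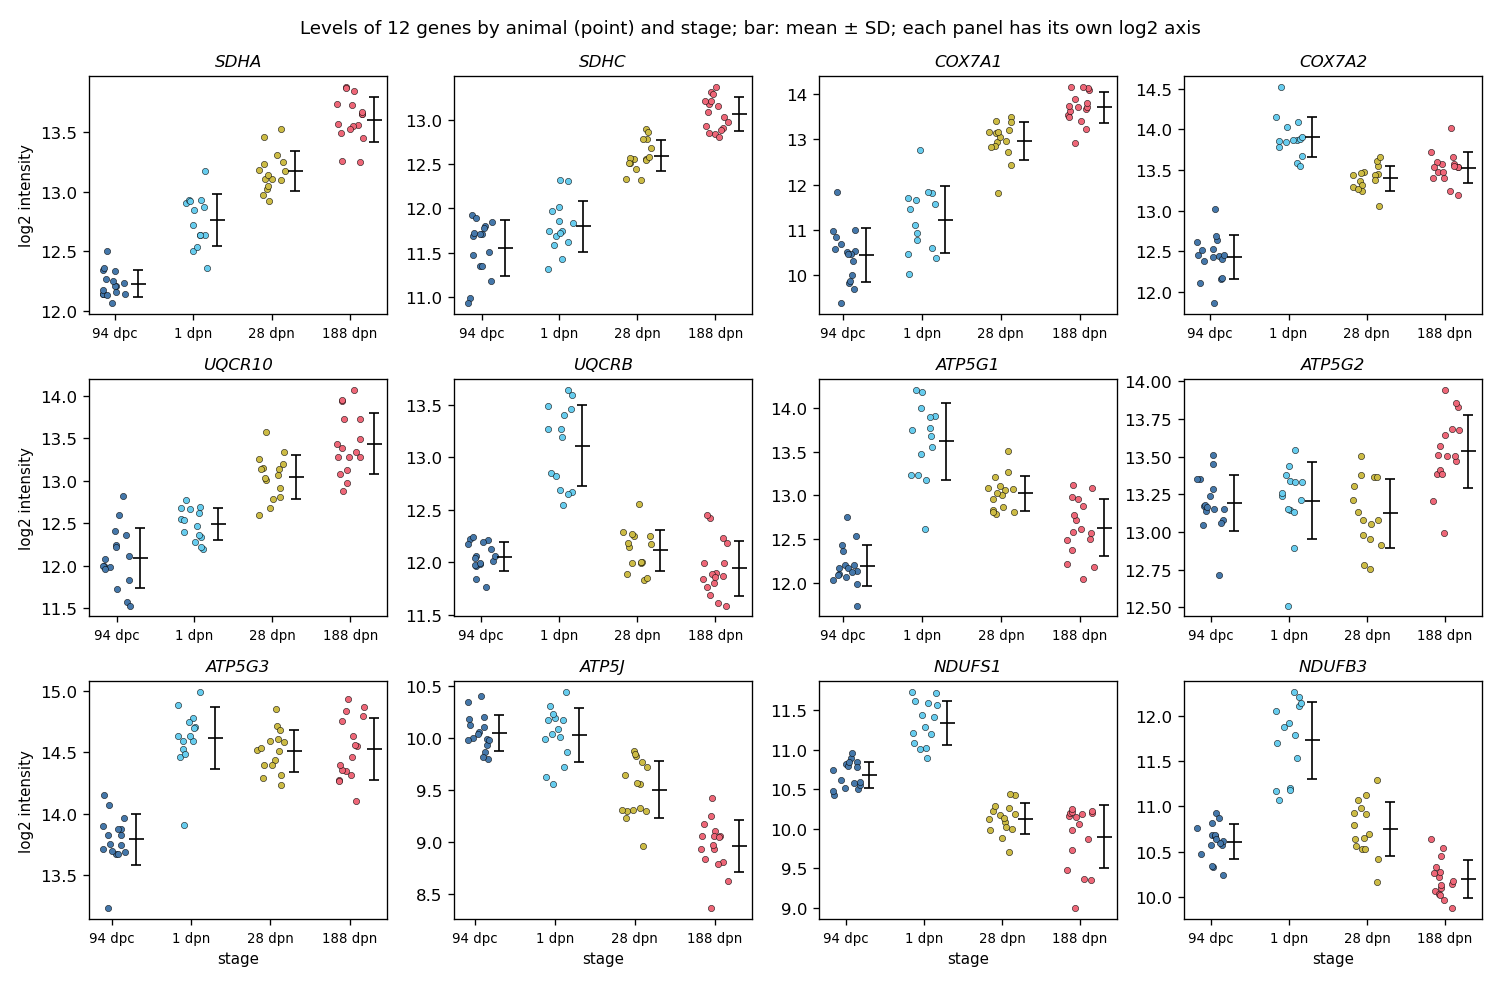
Log2 intensity of 12 genes by stage, where a point is 1 animal, bars give mean ± SD and each panel has its own axis (16 animals at 94 dpc, 14 at 1 dpn, 15 at 28 dpn, 16 at 188 dpn). SDHA, SDHC, COX7A1 and UQCR10 step up through all stages, UQCRB, NDUFB3 and NDUFS1 are highest at 1 dpn, ATP5G1 is highest at 1 dpn and ATP5G2 at 188 dpn, and ATP5J falls after birth.

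Complex I consists of a matrix arm that oxidises NADH and a membrane arm that pumps protons, each with core and accessory subunits. In the membrane arm, NDUFB11 had 2206, 2644 and 3622 at 94 dpc, 4474, 7453 and 8891 at 1 dpn, 5879, 6659 and 8642 at 28 dpn, and 6524, 9855 and 12525 at 188 dpn, with newborns wholly above fetuses. It was higher by 1.37 ± 0.09 (SE; q = 4.6e-15) in period I and 0.47 ± 0.10 (SE; q = 5.0e-05) in period III, where the period III change failed the SD filter after quantile normalization, and by 1.79 ± 0.09 (SE; q = 5.6e-19) over the whole span. NDUFB2 had medians of 2564 (94 dpc), 5399.7 (1 dpn), 6414 (28 dpn) and 8066 (188 dpn) and was called higher in all 3 periods, by 1.22, 0.24 and 0.30, and over the whole span by 1.77 ± 0.11 (SE; q = 2.1e-17). Its calls in periods II and III were not kept by quantile normalization (0.07 and 0.16). NDUFB7 had medians of 1235 (94 dpc), 3205 (1 dpn), 2664 (28 dpn) and 3215 (188 dpn) and rose by 1.32 ± 0.09 (SE; q = 6.3e-14) in period I. NDUFB10 was called higher in each period by small steps (0.24, 0.26 and 0.21), none of which was tested after quantile normalization. Its period III call was also lost with Benjamini-Hochberg adjustment (adjusted p = 0.061). The same call was lost without the intensity filter (q = 0.062) and without both filters (q = 0.054).

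NDUFB3, likewise of the membrane arm, had 1213, 1582 and 1948 at 94 dpc, 2153, 3649 and 4917 at 1 dpn, 1148, 1663 and 2508 at 28 dpn, and 939, 1147 and 1599.5 at 188 dpn, and newborns lay wholly above fetuses. NDUFB3 was higher by 1.12 ± 0.12 (SE; q = 3.6e-10) in period I, then lower by -0.98 ± 0.14 (SE; q = 5.0e-08) in period II and by -0.55 ± 0.10 (SE; q = 9.2e-06) in period III, all under the 3 scalings. Over the whole span it was lower by -0.41 ± 0.08 (SE; q = 1.6e-06), but higher by 0.24 after subtraction of the array medians. NDUFC2, another subunit of the membrane arm, was the only gene called lower in period I under all 3 scalings. Its intensities were 6265, 8839 and 12156 at 94 dpc, 5146, 6525 and 8136 at 1 dpn, 6950.0, 9044 and 10249.7 at 28 dpn, and 4999.9, 7007 and 9627 at 188 dpn, with overlap at every step, and its change in period I was -0.42 ± 0.09 (SE; q = 5.5e-05). In period II it was higher by 0.46 ± 0.08 (SE; q = 9.0e-07), in period III lower by -0.31 ± 0.09 (SE; q = 0.0012), but the rise failed the SD filter after quantile normalization (0.24) and the fall was not called after subtraction of the array medians (-0.15). NDUFC1 was lower in period I by -0.30 ± 0.12 (SE; q = 0.0055), a call that was lost after subtraction of the array medians (-0.15).

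In the matrix arm, NDUFS1, the largest iron-sulphur subunit, had 1373, 1639 and 1983 at 94 dpc, 1899, 2602 and 3385 at 1 dpn, 833, 1126 and 1384 at 28 dpn, and 511, 1102 and 1220.1 at 188 dpn. Newborns were highest, and all weaners lay below all newborns. NDUFS1 was higher by 0.66 ± 0.09 (SE; q = 4.4e-08) in period I and lower by -1.21 ± 0.10 (SE; q = 7.9e-13) in period II under all 3 scalings. Its change in period III, -0.23 ± 0.12 (SE; q = 0.03), was not called, since P was 0.059. Over the whole span it was lower by -0.78 ± 0.11 (SE; q = 7.8e-09) in all young adults against all fetuses, but after subtraction of the array medians the change was -0.13 and not called. NDUFS7, which carries the last iron-sulphur cluster before ubiquinone, had medians of 1694 (94 dpc), 3579.9 (1 dpn), 4551 (28 dpn) and 4174 (188 dpn) and was higher by 1.12 ± 0.12 (SE; q = 3.0e-10) in period I, by 0.33 ± 0.11 (SE; q = 0.002) in period II and by 1.28 ± 0.10 (SE; q = 5.7e-15) over the whole span. The period II call of NDUFS7 was not kept by quantile normalization (0.20). NDUFV1, the NADH-binding subunit, was added to the named genes after its values were seen. It had medians of 1544 (94 dpc), 3770.1 (1 dpn), 2511 (28 dpn) and 3083 (188 dpn) and was higher by 1.17 ± 0.10 (SE; q = 2.0e-12) in period I and by 0.27 ± 0.11 (SE; q = 0.01) in period III under all 3 scalings. Its fall of -0.54 ± 0.10 (SE; q = 7.3e-06) in period II was not called after subtraction of the array medians (-0.19).

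NDUFA5, an accessory subunit of the matrix arm, had medians of 487 (94 dpc), 438 (1 dpn), 242 (28 dpn) and 167 (188 dpn), with 273 to 713 at 94 dpc and 90.4 to 324 at 188 dpn. It was lower by -0.92 ± 0.21 (SE; q = 4.7e-05) in period II and by -1.59 ± 0.15 (SE; q = 3.2e-12) over the whole span under all 3 scalings, and by -0.51 ± 0.20 (SE; q = 0.01) in period III in the deposited scaling alone. NDUFA4, which the rule counts with complex I but which is now assigned to complex IV, had medians of 9263 (94 dpc), 20814 (1 dpn), 15116 (28 dpn) and 17042 (188 dpn). It was higher by 1.18 ± 0.09 (SE; q = 4.5e-13) in period I with no overlap, and lower by -0.35 ± 0.10 (SE; q = 3.9e-04) in period II, a change of -0.00 after subtraction of the array medians. NDUFA3 was higher by 1.02 ± 0.11 (SE; q = 2.7e-10) in period I, 0.55 ± 0.10 (SE; q = 1.1e-05) in period III and 1.33 ± 0.10 (SE; q = 9.0e-15) over the whole span under all 3 scalings, while its change in period II was -0.24 ± 0.11 (SE; q = 0.0073) and turned to 0.11 after subtraction of the array medians. NDUFV3 was near the array median at all stages (above it in 32 of 61 animals) and, in the deposited scaling, was called in period II alone, as lower by -1.22 ± 0.39 (SE; q = 0.0013).

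The ring of complex V that turns with the proton flow is built from subunit c, and the precursor genes ATP5G1, ATP5G2 and ATP5G3 encode the same mature protein. The 3 genes differed in course. ATP5G1 had 3406, 4530.2 and 6881 at 94 dpc, 6274, 13482 and 19041 at 1 dpn, 7061, 8335 and 11659.9 at 28 dpn, and 4201, 6182 and 8898 at 188 dpn, high in newborns and falling afterwards. It was higher by 1.43 ± 0.13 (SE; q = 7.8e-12) in period I and lower by -0.60 ± 0.13 (SE; q = 2.7e-05) in period II and -0.40 ± 0.10 (SE; q = 6.2e-04) in period III, both falls being uncalled after subtraction of the array medians (-0.25 and -0.24). ATP5G2 had 6725, 9212 and 11672 at 94 dpc, 5840.1, 9750.4 and 11932 at 1 dpn, 6910.4, 8661 and 11625 at 28 dpn, and 8170.1, 11660.2 and 15777 at 188 dpn and was highest in young adults. It was called higher by 0.41 ± 0.09 (SE; q = 1.4e-04) in period III, was tested in neither earlier period (changes of 0.02 and -0.08), and failed the SD filter in period III after quantile normalization (0.30). ATP5G3 had 9592, 14167 and 18245 at 94 dpc, 15403, 25438 and 32564 at 1 dpn, 19262, 23420.3 and 29552 at 28 dpn, and 17608, 23238 and 31264 at 188 dpn and was higher by 0.83 ± 0.09 (SE; q = 6.5e-10) in period I and by 0.74 ± 0.09 (SE; q = 2.7e-10) over the whole span, with changes of -0.11 in period II and 0.02 in period III that were not tested. In period II the other scalings differed, with ATP5G3 called lower by -0.24 after quantile normalization and higher by 0.24 after subtraction of the array medians, where ATP5G2 was also called higher by 0.26. Within arrays, ATP5G1 minus ATP5G2 averaged -1.00 (94 dpc), 0.42 (1 dpn), -0.10 (28 dpn) and -0.91 (188 dpn). Every newborn (from -0.36) lay above every fetus (up to -0.60) in this difference, and every young adult (up to -0.55) lay below every weaner (from -0.35).

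In the catalytic head, ATP5A1 (subunit alpha) had medians of 21401 (94 dpc), 25802 (1 dpn), 18995 (28 dpn) and 17152 (188 dpn). It was lower by -0.42 ± 0.08 (SE; q = 1.2e-05) in period II and by -0.40 ± 0.08 (SE; q = 2.4e-06) over the whole span, but higher by 0.25 over the whole span after subtraction of the array medians. ATP5E, subunit epsilon and the brightest probe-set of the 63 at weaning and later, had medians of 16716 (94 dpc), 24119.5 (1 dpn), 28840.1 (28 dpn) and 32722 (188 dpn). It was higher by 0.48 ± 0.07 (SE; q = 1.1e-07) in period I, where it failed the SD filter after quantile normalization (0.42), and by 0.97 ± 0.07 (SE; q = 1.3e-15) over the whole span. ATP5F1, subunit b of the stalk, had medians of 7519 (94 dpc), 15128 (1 dpn), 12047 (28 dpn) and 11169 (188 dpn) and rose by 0.95 ± 0.09 (SE; q = 1.1e-11) in period I without overlap. ATP5J, another stalk subunit, had 890.0, 1038 and 1355 at 94 dpc, 752, 1068 and 1390.0 at 1 dpn, 497, 751 and 935 at 28 dpn, and 328, 514 and 686 at 188 dpn, with newborns at the fetal level and a fall at each later stage. It was not tested in period I (-0.02) and was lower by -0.53 ± 0.10 (SE; q = 1.1e-05) in period II, -0.54 ± 0.10 (SE; q = 1.6e-05) in period III and -1.09 ± 0.08 (SE; q = 9.5e-15) over the whole span, where all young adults lay below all fetuses. The falls in period III and over the whole span held under all 3 scalings, and that in period II was not called after subtraction of the array medians (-0.18). ATP5L was higher by 0.68 ± 0.09 (SE; q = 2.1e-08) in period I and by 0.98 ± 0.08 (SE; q = 9.7e-14) over the whole span. ATP5I, subunit e, varied widely at 188 dpn (402 to 3735) and was higher by 0.75 ± 0.17 (SE; q = 5.6e-05) in period I and lower by -0.91 ± 0.26 (SE; q = 5.4e-04) in period II under all 3 scalings.

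Of the 4 genes outside the complexes, 2 were called higher in period I, NDUFAF1 by 0.35 ± 0.17 (SE; q = 0.013) and NDUFAF3 by 0.23 ± 0.09 (SE; q = 0.0067), the NDUFAF3 call being lost after quantile normalization (0.17) and the NDUFAF1 call with Benjamini-Hochberg adjustment (adjusted p = 0.064). NDUFAF1 and NDUFAF2, assembly factors of complex I, fell after birth. NDUFAF1 had medians of 397 (94 dpc), 527 (1 dpn), 248 (28 dpn) and 204 (188 dpn) and was lower by -1.04 ± 0.14 (SE; q = 4.5e-08) in period II and -0.95 ± 0.13 (SE; q = 6.1e-09) over the whole span under all 3 scalings. NDUFAF2 had 359, 483 and 595 at 94 dpc, 309, 531 and 727 at 1 dpn, 142, 281 and 299.9 at 28 dpn, and 198, 314 and 365 at 188 dpn, and all weaners lay below all newborns. It was lower by -1.02 ± 0.13 (SE; q = 5.7e-09) in period II and, under all 3 scalings, higher by 0.24 ± 0.10 (SE; q = 0.012) in period III, a call that was lost without the arrays with outlying control probe-sets (0.21). Its fall of -0.65 ± 0.08 (SE; q = 1.6e-09) over the whole span was not called after quantile normalization (-0.18) or after subtraction of the array medians, where the change was 0.0023. NDUFAF3 had medians of 2111 (94 dpc), 2469 (1 dpn), 2162 (28 dpn) and 2684 (188 dpn). ATP5S had medians of 813 (94 dpc), 790.3 (1 dpn), 825 (28 dpn) and 1266 (188 dpn) and was higher by 0.57 ± 0.10 (SE; q = 6.4e-06) in period III. NDUFAF3 and ATP5S were named after their values were seen.

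Over all 63 genes, periods II and III depended on the scaling. In period II, 40 genes were tested, with 10 called higher and 22 lower, against 28.9% and 41.4% of all 12146 tested probe-sets. The median change was -0.11, which is 0.14 above the median of all probe-sets. After quantile normalization 3 were called higher and 32 lower, with a median of -0.29, or 0.30 below that of all probe-sets. After subtraction of the array medians 31 were called higher and 8 lower, with a median of 0.24. All probe-sets shifted as well, with 3511 higher and 5031 lower in the deposited scaling, 4336 and 4121 after quantile normalization, and 6020 and 2886 after subtraction of the array medians. Under all 3 scalings COX7A1, SDHC and UQCR10 were called higher, and ATP5I, NDUFA5, NDUFAF1, NDUFAF2, NDUFB3, NDUFS1, NDUFV3 and UQCRB lower. Values did not overlap for 2 genes, both lower (NDUFS1 and NDUFAF2), against 5.80% of tested probe-sets, and for 0 genes in the other direction, against 4.09%. Leaving out newborn 21, newborn 22 or weaner 33 made it 3 lower, and leaving out newborn 22 or weaner 43 made it 1 higher. The share over all probe-sets was not computed without these animals. Without the least correlated array of each stage 6 genes were called higher and 23 lower. By complex, 5 of 22 tested genes were called higher and 13 lower in complex I, 2 of 3 higher and 0 lower in complex II, 1 of 2 in each direction in complex III, 1 of 4 in each direction in complex IV, and 1 of 7 higher and 5 lower in complex V. Complex II was the only complex whose median change, 0.29, lay above 0 under each of the 3 scalings. After quantile normalization this median was 0.07, with SDHB at -0.13 and SDHD at -0.06. With the probe-sets of a gene averaged, SDHA changed by -0.49 and SDHB by -0.33, so the direction of these 2 genes depends on the probe-set.

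In period III, 31 genes were tested, and the other 32 did not pass the filters. Of those tested, 19 were called higher and 7 lower, against 18.3% and 35.7% of all 10992 tested probe-sets. The median change was 0.14, or 0.24 above that of all probe-sets, with 0.04 after quantile normalization (8 higher, 7 lower) and 0.30 after subtraction of the array medians (34 higher, 3 lower). For all probe-sets these calls were 2009 higher and 3919 lower in the deposited scaling, 2740 and 2760 after quantile normalization, and 3630 and 2467 after subtraction of the array medians. Under all 3 scalings ATP5S, COX7A1, NDUFA1, NDUFA3, NDUFA10, NDUFAF2, NDUFV1 and UQCR10 were called higher, and ATP5J, COX8H and NDUFB3 lower. No gene was without overlap in either direction, against 0.509% and 0.855% of tested probe-sets. By complex, 11 of 17 tested genes were higher and 3 lower in complex I, 2 of 2 higher in complex II, 1 of 1 higher in complex III, 1 of 3 in each direction in complex IV, and 1 of 4 higher and 2 lower in complex V.

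**Figure D4:**
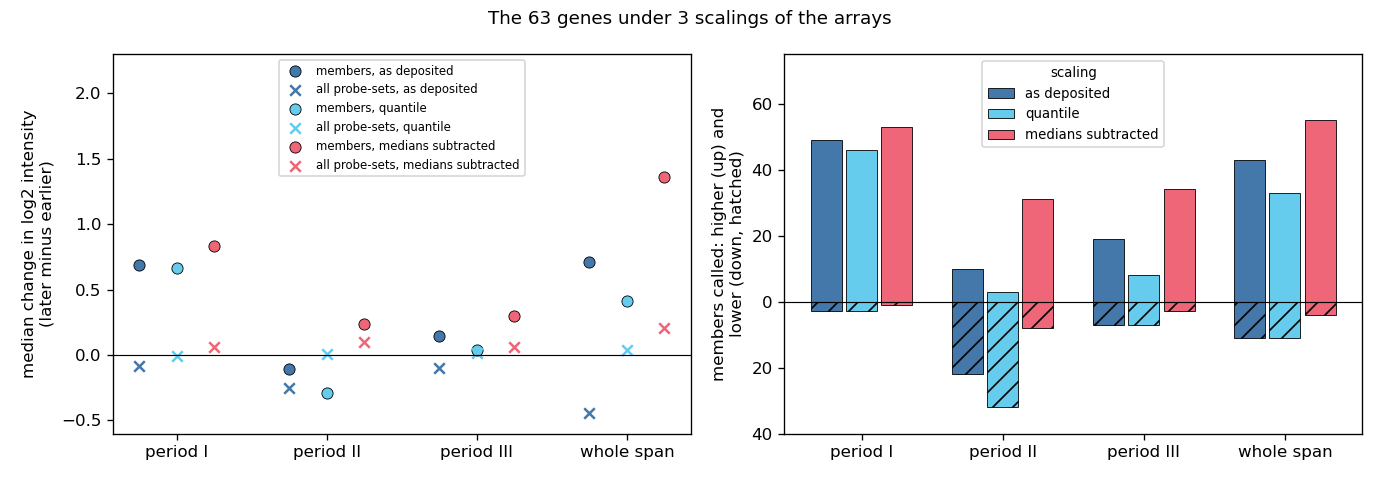
Left, median change in log2 intensity (later minus earlier stage) of the 63 genes (circles) and of all probe-sets (crosses); right, number of the 63 genes called higher (upwards) and lower (downwards, hatched), for the 3 scalings of the arrays. The counts in period I keep their direction under each scaling, whereas the median of period II is -0.11, -0.29 or 0.24 depending on it.

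Over the whole span 23 of 30 tested genes of complex I were called higher and 6 lower, 4 of 4 higher in complex II, 1 of 1 higher in complex III, 5 of 6 higher and 1 lower in complex IV, and 8 of 11 higher and 2 lower in complex V. The median changes were 0.84, 1.15, 0.62, 1.07 and 0.44 for complexes I to V. After quantile normalization they were 0.47, 0.67, 0.24, 0.58 and -0.01, so that the rise of complex V as a group was not kept, while 4 of its 13 genes, ATP5D, ATP5E, ATP5G3 and ATP5L, were called higher under all 3 scalings.

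Neighbouring steps of the pathway were taken from lists that do not overlap with the 63 genes. Of all tested probe-sets, 26.1% were called higher and 41.6% lower in period I, and 28.9% and 41.4% in period II. In period III these shares were 18.3% and 35.7%, and over the whole span 28.6% and 55.0%. Electron carriers and their partners rose in period I: of 10 genes found, 8 were tested, 7 called higher and 0 lower, as after quantile normalization. SQOR, which feeds electrons from sulphide to ubiquinone, rose by 1.62 ± 0.14 (SE; q = 5.3e-12), ETFDH, which does so from fatty acid oxidation, by 1.30 ± 0.11 (q = 1.9e-12), and ETFB, its electron donor, by 1.24 ± 0.13 (q = 1.6e-10). CYCS, the somatic cytochrome c, rose by 1.01 ± 0.18 (q = 1.8e-06) in period I and fell by 1.27 ± 0.17 (q = 2.0e-08) in period II and by 0.86 ± 0.17 (q = 3.9e-05) in period III, under all 3 scalings. In period II, 2 of 6 tested carriers were called higher and 4 lower, in period III 1 and 2 of 6, and over the whole span 5 and 3 of 8. In the same order, quantile normalization gave 1 and 5, 0 and 2, and 5 and 2. Subtraction of the array medians gave 2 and 3, 4 and 2, and 7 and 1. Assembly factors outside the symbol rule also rose in period I, with 8 of 12 called higher and 1 lower. After quantile normalization 9 were called higher and 0 lower. TACO1, a translational activator of the complex IV subunit COX1, led them at 1.29 ± 0.11 (q = 3.4e-12). In period II 3 of 10 assembly factors were higher and 5 lower, in period III 1 and 4 of 7, and over the whole span 6 and 2 of 10. In period II quantile normalization gave 3 higher and 5 lower, and subtraction of the array medians 5 and 3. In period III quantile normalization gave 1 higher and 1 lower, and subtraction of the array medians 3 and 0. These scalings gave 7 and 0, and 12 and 0, over the whole span.

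Among the carriers of ADP and phosphate, the adenine nucleotide translocators went different ways. SLC25A4, the form best known from heart and muscle, was higher by 1.27 ± 0.10 (SE; q = 6.1e-13) in period I, 0.60 ± 0.10 (q = 6.2e-07) in period II and 0.37 ± 0.08 (q = 9.6e-05) in period III, with 2.24 ± 0.08 (q = 4.0e-23) over the whole span. The change of SLC25A4 in period III failed the SD filter after quantile normalization (0.25). SLC25A5, the form best known from proliferating cells, was higher by 0.65 ± 0.11 (q = 7.5e-07) in period I and lower by -0.83 ± 0.11 (q = 1.2e-08) in period II and -0.74 ± 0.09 (q = 2.3e-08) in period III, with -0.91 ± 0.09 (q = 2.5e-12) over the whole span, under all 3 scalings. The 4 proliferation markers found were all called lower in periods II and III, and their part in these values was not tested. In the list of 10 genes, 4 of 5 tested were called higher and 0 lower in period I, and 2 and 4 of 7 in period II. In period III 1 and 2 of 4 were called, and over the whole span 3 and 3 of 7. Subtraction of the array medians gave 3 and 2 in period II, 3 and 1 in period III, and 5 and 1 over the whole span. Quantile normalization gave 1 and 4, 0 and 1, and 2 and 4, and in period I 3 and 1. In the deposited scaling, from period I to the whole span, 26.1%, 28.9%, 18.3% and 28.6% of all tested probe-sets were called higher. Called lower were 41.6%, 41.4%, 35.7% and 55.0%.

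Of 22 listed regulators of mitochondrial biogenesis 5 were found. In period I, 0 of 5 were called higher and 3 lower in the deposited scaling (1 higher and 3 lower under each of the other scalings). Of all tested probe-sets 26.1% were called higher and 41.6% lower in that period as deposited. TFAM, which activates transcription of mitochondrial DNA, changed by -0.62 ± 0.15 (SE; q = 1.1e-04), and YY1, a transcription factor, by -0.51 ± 0.08 (q = 6.8e-07). PPARGC1A, a coactivator that promotes mitochondrial biogenesis and gluconeogenesis, was not called in period I (-0.20) and was lower by -1.33 ± 0.19 (q = 5.0e-08) in period II. TFAM, YY1 and PPARGC1A were lower over the whole span under all 3 scalings. In the citrate cycle, 11 of 16 tested genes were called higher and 2 lower in period I, 1 and 8 of 11 in period II, 3 and 5 of 13 in period III, and 8 and 8 of 17 over the whole span. Quantile normalization gave 1 higher and 9 lower in period II, 2 and 4 in period III, and 7 and 8 over the whole span. Subtraction of the array medians gave 7 higher and 4 lower in period II, 4 and 2 in period III, and 12 and 4 over the whole span. Over all tested probe-sets as deposited, the shares called higher from period I to the whole span were 26.1%, 28.9%, 18.3% and 28.6%. The shares called lower were 41.6%, 41.4%, 35.7% and 55.0%. IDH3A and SUCLA2, subunits of isocitrate dehydrogenase and succinyl-CoA ligase, were lower by -1.26 ± 0.16 (q = 1.2e-08) and -1.33 ± 0.15 (q = 1.3e-09) in period II under all 3 scalings. Other subunits of these enzymes did not fall with them. SUCLG2 was called higher in period II by 0.52, under all 3 scalings. IDH3B (0.09), IDH3G (0.03) and SUCLG1 (-0.03) were not tested there, and after subtraction of the array medians were called higher by 0.44, 0.38 and 0.32.

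Within a stage the 63 genes varied together in part. Over the 1953 gene pairs the median correlation was 0.31 at 94 dpc (n = 16), 0.46 at 1 dpn (n = 14), 0.32 at 28 dpn (n = 15) and 0.32 at 188 dpn (n = 16), where the values of an animal share 1 array and its scaling. The mean of the genes was set against RNA measures of the array. It correlated negatively with the 3' minus 5' difference of the GAPDH control probe-sets at each stage, with r = -0.40 (rho = -0.33), -0.83 (-0.60), -0.33 (-0.26) and -0.82 (-0.73) from 94 dpc to 188 dpn, and r = -0.18, -0.68, -0.09 and -0.68 without the 2 animals farthest from the median. With the differences of beta-actin and EF1A the sign varied, with r = -0.25, -0.54, 0.22 and 0.44 for beta-actin and -0.07, -0.65, 0.03 and 0.56 for EF1A. With the array median r was -0.73, -0.45, -0.51 and -0.72, and -0.69, -0.17, -0.54 and -0.58 without the 2 animals farthest from the median. These correlations are given as a description. Newborn 21 had the lowest mean of its stage (-0.27, against a stage mean of 0.21), the highest GAPDH difference of its stage (1.24, against a median of 0.34) and the lowest correlation with its stage.

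Such measures also differed between stages. The GAPDH difference averaged 1.05 (94 dpc), 0.39 (1 dpn), 0.79 (28 dpn) and 0.64 (188 dpn), that of beta-actin 2.27, 1.78, 3.94 and 4.03, and that of EF1A -0.02, -0.14, 0.39 and 0.56. Their part in the changes was not tested. Without the 9 arrays whose difference was outlying for their stage, 46 genes were called higher and 3 lower in period I, 7 and 21 in period II, 13 and 6 in period III, and 42 and 10 over the whole span. Marker transcripts of blood-forming and other cells differed between stages as well. Of 7 erythroid markers found, 6 were tested in period I and all 6 called lower, and their mean signal (log2, median of the animals) was 8.17 at 1 dpn, against 10.9 at 94 dpc. T and NK cell markers, 6 of 6 at or below the array median at 94 dpc and 1 dpn, were called higher in 4 of 4 tested in period II. Granulocyte markers were called lower in 5 of 5 tested in period II, and macrophage markers higher in 5 of 7 in period II and lower in 6 of 7 in period III. The 3 markers of fetal hepatocytes had a median change of -3.94 in period II. Over all tested probe-sets 41.6% were called lower in period I, 28.9% higher and 41.4% lower in period II, and 35.7% lower in period III. The part of these cells in the subunit changes was not tested.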

How the data were processed

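Liver RNA of 61 LP offspring was measured on the Affymetrix GeneChip Porcine Genome Array, 1 animal per array. The deposited values are linear signal intensities of 24123 probe-sets, which the authors scaled globally; the submitters' processing notes name GCOS 1.1.1. Array means, trimmed by 2% from both ends, were 500.127 to 500.229, and precision is limited by how many arrays a stage has. The 124 control probe-sets were left out of the tests. Gene names came from the platform annotation, and all 63 genes matched the RefSeq table of the pig, used for names alone. No sequences were analysed here.

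Intensities were taken to log2. Tested probe-sets exceeded the array median in 50% or more of the animals at either stage, with an SD above 0.25 over the arrays compared. The comparisons used limma 3.58.1 in R 4.3.3 (two-sided; stage as the only term, since sex, mother and weight are not in the labels) over all probe-sets, and q-values were computed after Storey over all probe-sets tested (lambda 0.05 to 0.95, step 0.05; smoothing spline of 3 df). The fit was tested on simulated data. For each comparison and complex the 3 called genes with the largest change were named. Also named were the SDH genes, the tissue isoforms, genes called against the majority, the dimmest and the brightest gene, and genes with opposing probe-sets. NDUFV1, NDUFAF3 and ATP5S are marked as named after their values were seen. COX6C, COX7C, IDH3B, IDH3G, SUCLG1 and SUCLG2 were also named outside this rule. The genes and lists were chosen with earlier results of these data known. Alternatives were quantile normalization, subtraction of the array medians, Benjamini-Hochberg adjustment, no intensity or SD filter or neither, all stages in 1 fit, a pseudocount of 16, the array median as floor, averaging the probe-sets of a gene, moderation with trend and robust, and leaving out the 9 arrays whose 3' minus 5' control difference lay over 3 scaled median absolute deviations from its stage median or the least correlated array of each stage. Plots were made in Python 3.11.15 with matplotlib 3.10.9.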

Additional observations from a re-analysis of the deposited data

How the results depend on the processing

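Under 13 alternatives, 141 of the values that count the called genes or give their median kept their direction and size (counts within 1.5 times, medians within 1 SD of the animals' means), 14 moved and 1 turned. Within that SD the median of period III was 0.04 after quantile normalization (0.14 as deposited) and that of period II -0.22 with averaged probe-sets (-0.11). Among single named genes, 1511 values kept their call, 30 lost it, 11 gained it and 11 turned. Quantile normalization gave 3 genes higher in period II (10 as deposited) with a median change of -0.29, 8 higher in period III (19) and a median of 0.41 over the whole span (0.71). Subtraction of the array medians gave 1 lower in period I (3), 31 higher and 8 lower in period II (10 and 22) with a median of 0.24, which is the turned value, 34 higher and 3 lower in period III (19 and 7) with a median of 0.30, and 4 lower over the whole span (11) with a median of 1.36. Without the least correlated array of each stage 6 genes were higher in period II, and averaging the probe-sets of each gene gave a median of 0.50 over the whole span. Single genes turned with the mean of probe-sets in period II (ATP5L -0.38, SDHA -0.49, SDHB -0.33) and over the whole span (SDHB -0.73). With the array medians subtracted NDUFA3 turned in period II (0.11), and over the whole span ATP5A1 (0.25), NDUFA1 (0.00039), NDUFA7 (0.38), NDUFAF2 (0.0023), NDUFB3 (0.24) and NDUFC2 (0.38). The cause was not tested. No paired analysis was possible because the labels do not identify litters. The paper states that littermates were divided among the postnatal stages and that sib pairs were chosen at each stage. Littermates were not modelled, and dim genes (COX8H, NDUFV3) are limited by background.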
